A study of Mus musculus with 2 samples.

Results

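The HIN-200 genes are a family of interferon-inducible genes that lie side by side on mouse chromosome 1. The 10 genes described here, Ifi202b, Ifi203, Ifi204, Ifi205, Ifi207, Ifi208, Ifi209, Ifi211, Ifi213 and Ifi214, were taken by name from a count table of 27179 genes, after matching its Entrez Gene numbers to mouse symbols. All 10 were found. The same stretch holds 4 further HIN-200 genes of the table, Aim2, Ifi206, Mndal and the pseudogene Ifi203-ps, which are given beside them. The family was selected on the ratios of Dox over untreated levels of these same libraries, so the values below describe it and test nothing.

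Most HIN-200 proteins join an N-terminal pyrin domain, which binds other pyrin domains, to a C-terminal HIN domain, which binds double-stranded DNA. Some members sense DNA in the cytosol or nucleus and start inflammasome or interferon responses. Others bind transcription and cell cycle factors, and many were first found as transcripts that type I interferon raises in lymphoid and myeloid cells. The mouse family has expanded by local duplication, and its members differ between inbred strains.

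The RNA came from ALL65, 1 primary T cell leukaemia (T-ALL) that arose in a mouse of the genotype Vav-tTA;TRE-GFP-shIkaros. In this model the tetracycline transactivator tTA, under the Vav promoter of blood cells, drives a hairpin RNA against Ikaros that is linked to green fluorescent protein (GFP). Doxycycline (Dox) stops the hairpin and so restores endogenous Ikaros. The Dox group held GFPmid T-ALL cells sorted from spleens of leukaemic recipient mice given Dox for 3 days, and the untreated group held GFPhigh cells of untreated recipients. Both groups carry the same transgenes. Since each treatment had its own GFP gate, gate and treatment cannot be told apart. The labels used here give no strain or age for the recipients.

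Each group had 1 library, with 14457475 counts for Dox and 7477988 for untreated cells. No value has a replicate error, no test was possible, and the differences have no replicate check. Bounds in parentheses are exact 95% counting intervals, which hold no spread between mice. Ikzf1, the gene the hairpin targets, had 1455 CPM (counts scaled to library size) in Dox cells and 262 CPM in untreated cells, with a ratio on the log2 scale of 2.47 (2.41 to 2.54). Markers of the T lineage were present in both libraries, with 14 of 15 listed genes measured (a mean of at least 1 CPM over both libraries). Their levels also differed between the libraries, with ratios of 1.27 for Cd8b1 (1.18 to 1.36), 1.05 for Trac (0.97 to 1.13) and -1.12 for Dntt (-1.17 to -1.07), and the part of this difference in the ratios below was not tested. B cell markers were near 0, with 10 of 10 under that level and a summed level of 0.914 CPM in Dox cells and 0.526 CPM in untreated cells. Of 8 NK cell markers, Ncr1, Klrk1, Klrd1, Klre1 and Gzmb had 0 counts in both libraries, and the summed level was 5.55 CPM in Dox cells and 1.97 CPM in untreated cells. The 2 that were measured, named after their values were seen, both stood at least 2-fold higher with Dox. Prf1 had 35 counts with Dox and 3 without, a ratio of 2.19 (0.97 to 4.99). Nkg7 had 41 with Dox and 9 without, a ratio of 1.16 (0.22 to 2.51). Of 6 red cell genes, 3 were measured, and Tfrc, which dividing cells of many kinds transcribe, gave 418 CPM in Dox cells and 484 CPM in untreated cells.

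The cluster did not move as 1 unit. Reading along the chromosome from Ifi206 to Ifi205, the genes up to Ifi208 stood higher in Dox cells and the genes from Ifi207 on stood lower, with a single change of direction between neighbours. Of the 10 members, 4 had a log2 ratio above 0 and 6 one below 0, and the counting interval of 10 of 10 left out 0, which 47.1% of the 11498 genes measured also did. The ratios ran from -3.82 for Ifi202b to 2.19 for Ifi213. This division into a first and a second group along the chromosome was made after the values were seen.

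**Figure D1:**
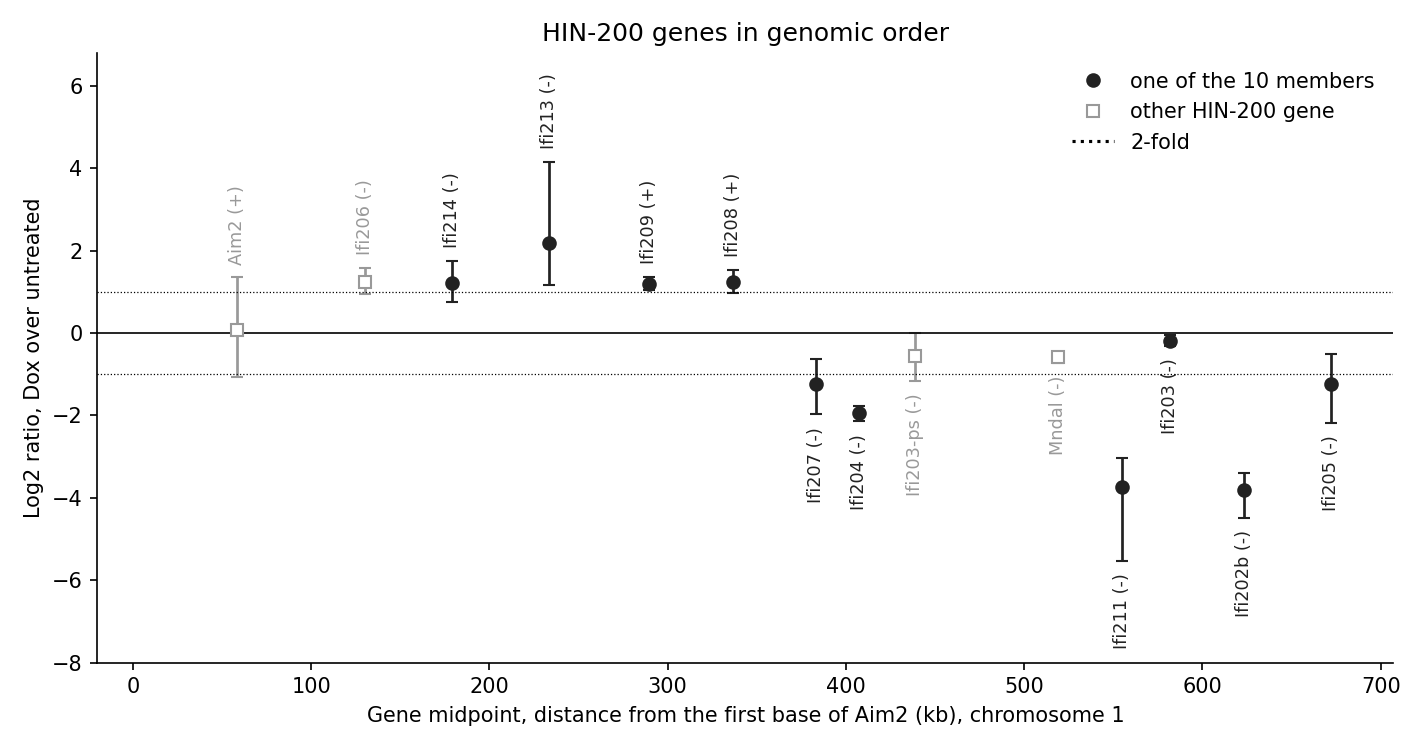
Log2 ratio of Dox over untreated (y axis) of each HIN-200 gene against its distance from the first base of Aim2 (x axis, kb), with strand in brackets and bars for exact 95% counting intervals. The genes from Ifi206 to Ifi208 lie between 1.20 and 2.19, and all genes from Ifi207 to Ifi205 lie below 0, down to -3.82.

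A gene was counted as changed in size when its ratio was at least 2-fold and its level at least 5 CPM in the higher library. Over the whole table, 2.21% of 10113 genes past that level were so much higher with Dox and 2.24% were so much lower. Of the 8 members past the level, 3 were at least 2-fold higher (Ifi214, Ifi209 and Ifi208) and 4 at least 2-fold lower (Ifi207, Ifi204, Ifi211 and Ifi202b), with Ifi203 in between. The interval lay wholly past 2-fold for Ifi209 on the higher side, against 1.14% of all genes past the level, and for Ifi204, Ifi211 and Ifi202b on the lower side, against 1.39%. Ifi213 and Ifi205 stayed under the level. Since the family was proposed from this same comparison, these counts carry no weight beside the background shares.

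Short stretches of sequence before the genes' starts show both how alike the members are and where they part. The promoter table of RefSeq on GRCm38.p6, the assembly behind mm10, held windows from 250 bases before to 50 bases after the start for 12 of the 14 genes. Ifi204 and Ifi203-ps have no entry in it. Mndal and Ifi203 have 2 windows each, and a gene was counted when any of its windows held a match. The first window of Ifi203 holds no match to the core described next, so its printed stretch and distance come from its second window. Of these 12 genes, 9 hold the core of the interferon-stimulated response element, GAAANNGAA on either strand, to which interferon-activated factors bind. Among all 27025 genes in the promoter table, 9.76% hold it. With 1 more A at the end of the core the count is again 9 of 12, against 3.99% of all genes. The stretches of 41 bases around the first such match are printed 5′ to 3′ along the gene, in genomic order of the genes, with the core in capitals.

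Ifi206: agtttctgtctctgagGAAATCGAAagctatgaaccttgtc
Ifi214: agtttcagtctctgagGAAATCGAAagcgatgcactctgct
Ifi213: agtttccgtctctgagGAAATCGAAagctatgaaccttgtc
Ifi208: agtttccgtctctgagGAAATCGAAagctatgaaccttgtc
Ifi207: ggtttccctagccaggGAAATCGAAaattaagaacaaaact
Mndal: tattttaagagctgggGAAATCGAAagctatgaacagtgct
Ifi211: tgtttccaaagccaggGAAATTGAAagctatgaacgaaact
Ifi203: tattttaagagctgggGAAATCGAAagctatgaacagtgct
Ifi205: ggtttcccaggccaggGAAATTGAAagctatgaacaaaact

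The core GAAATCGAA stands in 7 of the 12 genes and in 0.111% of all genes, and it occurs on both sides of the change of direction. Ifi211 and Ifi205, both lower with Dox, have GAAATTGAA in its place, which 0.470% of all genes hold. These forms were searched for after the matches had been seen. The first core lies 35 to 79 bases before the RefSeq start in 8 of these genes and 134 bases before it in Ifi205. The printed stretches lie on chromosome 1 of GRCm38.p6, for example that of Ifi208 at chr1:173673591-173673631 on the plus strand and that of Ifi211 at chr1:173913059-173913099 on the minus strand.

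Aim2, Ifi209 and Ifi202b hold no match to the core in their windows. Ifi209 has the stretch that lines up with that of Ifi214 but with 4 differences in 41 bases. Counted from 1 at the 5′ end, with the base of Ifi214 first, these are G8A, G17T, C28A and T41C, and G17T falls on the first base of the core. The stretch of Ifi209, at chr1:173630764-173630804 on the plus strand, is shown to set beside that of Ifi214.

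Ifi209: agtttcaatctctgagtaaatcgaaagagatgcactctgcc

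The ratio was 1.20 for Ifi209 and 1.22 for Ifi214, whose transcripts share sequence, so that their counts may not be independent. A missing match says only that these letters are not in the window.

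The window of Ifi202b, the member with the lowest ratio, is shown whole, at chr1:173982795-173983094 on the minus strand. It holds 1 match, in capitals, to TTCNNNGAA, the core of the gamma interferon-activated site, which reads the same on both strands and lies 148 bases before the start. Of all genes 9.55% hold this core, and of the 12 family genes Ifi202b alone does.

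Ifi202b: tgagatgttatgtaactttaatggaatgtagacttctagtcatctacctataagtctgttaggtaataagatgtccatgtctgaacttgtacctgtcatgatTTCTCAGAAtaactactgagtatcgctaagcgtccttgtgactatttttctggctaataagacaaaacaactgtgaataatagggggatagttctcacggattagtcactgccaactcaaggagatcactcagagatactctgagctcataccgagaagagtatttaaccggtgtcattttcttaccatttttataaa

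TGGGAA, a core that Ikaros binds, was searched for on both strands. It was found in 1 of the 12 genes, Ifi205, with 2 matches on the minus strand of the window, and in 28.3% of all genes. The shorter core GGGAA, added after the data were seen, was found in 10 of 12 genes and in 65.5% of all genes. In Ifi207, Mndal, Ifi211, Ifi203 and Ifi205 a match overlaps the interferon-stimulated response element core. In Ifi206, Ifi214, Ifi213 and Ifi208, which also hold that core, none does. Ifi202b, the member with the lowest ratio, holds no GGGAA, and Ifi204 has no window. This overlap was looked at after the ratios were known, and its share over all genes was not counted. Several of these windows are near copies, and any link between overlap and ratio was not tested.

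Several windows fall into sets of near copies, and these sets lie within the groups along the chromosome. For genes with 2 windows, the pair with the most identical bases was used. Ifi213 and Ifi208 aligned with 282 identical bases, 94.0% of the window length of 300, Ifi206 and Ifi208 with 279 bases (93.0%), and Ifi214 and Ifi209 with 287 bases (95.7%). All 5 of these genes stood higher with Dox. Mndal and Ifi203 shared 282 bases (94.0%) and had small ratios below 0, and Ifi207 and Ifi211 shared 260 bases (86.7%) and had larger ones. Ifi211 and Ifi205 shared 188 bases (62.7%) in an aligned stretch of 201. Ifi214 and Ifi203, of different groups, also shared 188 bases (62.7%), in an aligned stretch of 303. Ifi202b was in no set of near copies, and its best match was Ifi213 of the first group, at 185 bases (61.7%). Over all 66 pairs the median was 50.3%. Genes that lie side by side after a duplication share sequence, position and history, so these cannot be told apart here.

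**Figure D2:**
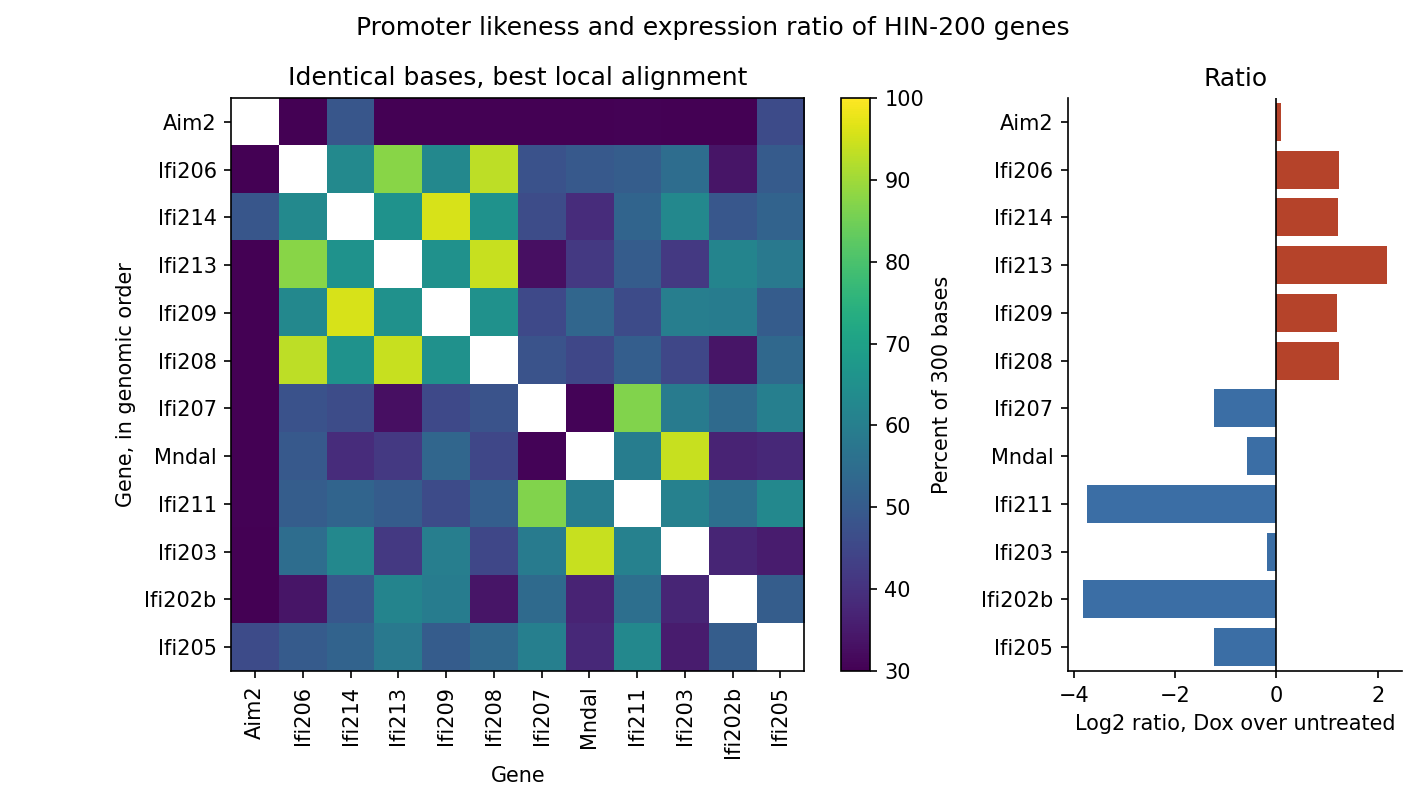
Left, identical bases in the best local alignment of each pair of promoter windows (colour, percent of 300 bases), with genes in genomic order on both axes. Right, the log2 ratio of Dox over untreated of each gene (x axis); the bright pairs lie among Ifi206 to Ifi208, all above 0, or among Ifi207 to Ifi205, all below 0.

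The genes of the first group encode pyrin-domain proteins whose own functions are less studied than those of Aim2 or Ifi204. Ifi214 (Entrez Gene 545384, chromosome 1 from 173521311 to 173535957, minus strand) had 191 counts in the Dox library and 43 in the untreated library, 13.4 and 5.66 CPM. Its log2 ratio was 1.22 (0.76 to 1.76), a 2.33-fold higher level in Dox cells.

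Ifi213 (623121, from 173566280 to 173599348, minus strand), also named Pydc4, had 52 counts with Dox and 5 without, 3.66 and 0.658 CPM. It had the highest ratio of the family, 2.19 (1.16 to 4.16), and the widest interval of the first group, since it rests on 5 untreated counts. The ratio was 1.88 with a prior count of 5 and 2.39 with one of 0.5.

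Ifi209 (236312, from 173630859 to 173647928, plus strand), also known as Pyhin1 and Ifix, was the most abundant gene of the first group. It had 1578 counts with Dox and 367 without, 111 and 48.3 CPM. The log2 ratio of 1.20 (1.04 to 1.37) was the only one of the group, beside that of Ifi213, whose interval lay wholly past 2-fold. Ifi208 (100033459, from 173673628 to 173698393, plus strand), also named Pydc3, had 561 counts with Dox and 126 without, 39.4 and 16.6 CPM. Its ratio was 1.24 (0.97 to 1.54).

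Ifi206 lies next to Ifi214 and is no member of the 10. The table lists it under the older Entrez number 240921, which the RefSeq gene table gives as a synonym. It had 446 counts with Dox and 100 without, 31.4 and 13.2 CPM, and a ratio of 1.24 (0.94 to 1.58). Ifi206, Ifi214, Ifi209 and Ifi208 thus had log2 ratios between 1.20 and 1.24, with overlapping intervals. Summed over the 5 genes, the level was 199 CPM in Dox cells and 84.3 CPM in untreated cells, 2.36-fold higher.

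Aim2, which lies before Ifi206 at the low-coordinate end, encodes the cytosolic DNA sensor that binds the adaptor ASC and starts an inflammasome. It had 20 counts with Dox and 10 without, 1.41 and 1.32 CPM. The ratio was 0.08 (-1.07 to 1.35), so a difference of 2-fold in either direction was not detectable at this depth.

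The second group starts with Ifi207 (226691, from 173723424 to 173741831, minus strand), whose protein has a long repeat region between its pyrin and HIN domains. It had 35 counts with Dox and 46 without, 2.46 and 6.05 CPM, with its log2 ratio at -1.24 (-1.98 to -0.63). Ifi208 and Ifi207, with opposite ratios, are neighbours among the counted HIN-200 genes, 25 kb apart.

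Ifi204 (15951, from 173747293 to 173767069, minus strand) encodes p204, a nuclear and cytosolic protein related to human IFI16 that binds the retinoblastoma protein and takes part in DNA sensing. It had 342 counts with Dox and 708 without, 24.0 and 93.2 CPM. The ratio was -1.95 (-2.14 to -1.77), 3.85-fold lower in Dox cells, with a narrow interval for the family.

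Ifi211 (381308, from 173896339 to 173913087, minus strand), also named Mnda, had 7 counts with Dox and 67 without, 0.492 and 8.82 CPM. Its ratio was -3.74 (-5.53 to -3.04), 13.3-fold lower, with a wide interval because it rests on 7 Dox counts. Ifi205 (226695, from 174011998 to 174031755, minus strand), a close relative reported to control ASC expression in mouse macrophages, had 23 counts with Dox and 31 without. Its levels were 1.62 and 4.08 CPM, with a ratio of -1.24 (-2.18 to -0.51).

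Ifi202b (26388, from 173962569 to 173982844, minus strand) encodes p202, which has HIN domains but no pyrin domain, inhibits Aim2 inflammasomes and is known from lupus-prone mouse strains. It had 34 counts with Dox and 275 without, 2.39 and 36.2 CPM. The ratio of -3.82 (-4.48 to -3.40) was the fourth lowest of the 10113 genes past 5 CPM in the higher library, and that of Ifi211 the sixth lowest. Both genes pass that level only in the untreated library, and the family was selected on these same ratios. The ranks therefore describe the values and carry no further weight.

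Ifi203 (15950, from 173920400 to 173942866, minus strand) lies between Ifi211 and Ifi202b and stood apart from both. It had 1311 counts with Dox and 795 without, 92.2 and 105 CPM, and a ratio of -0.18 (-0.31 to -0.05). Mndal, whose promoter window resembles that of Ifi203 but whose transcripts share only 6.19% of their 50-base stretches with it, had 981 counts with Dox and 787 without, 69.0 and 104 CPM, and a ratio of -0.59 (-0.72 to -0.45). The pseudogene Ifi203-ps shares 24.3% of its 50-base stretches with Ifi203, so that their counts may not be independent. Ifi203-ps had 60 counts with Dox and 48 without and a ratio of -0.56 (-1.15 to -0.004). Ifi203, Mndal and Ifi203-ps thus had the ratios closest to 0 of the second group, among neighbours with the lowest.

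Levels between genes were compared as CPM per kb of the gene length in the table. In Dox cells the order was led by Mndal at 36.1, Ifi209 at 31.7, Ifi203 at 24.3 and Ifi208 at 13.2 CPM per kb. In untreated cells it was led by Mndal at 54.3, Ifi204 at 40.6, Ifi203 at 27.6 and Ifi202b at 20.1 CPM per kb. Of 13 neighbouring pairs in the order, 6 had counting intervals that lay apart in Dox cells and 6 in untreated cells. In Dox cells Ifi206, Ifi204 and Ifi214 lay at 10.6, 10.5 and 10.4 CPM per kb, with overlapping intervals, and so did all neighbours from Ifi213 at 1.36 down to Ifi211 at 0.298 CPM per kb. In untreated cells the neighbours from Ifi208 at 5.55 down to Ifi207 at 1.74 CPM per kb overlapped, and Ifi213 was lowest at 0.246 CPM per kb.

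**Figure D3:**
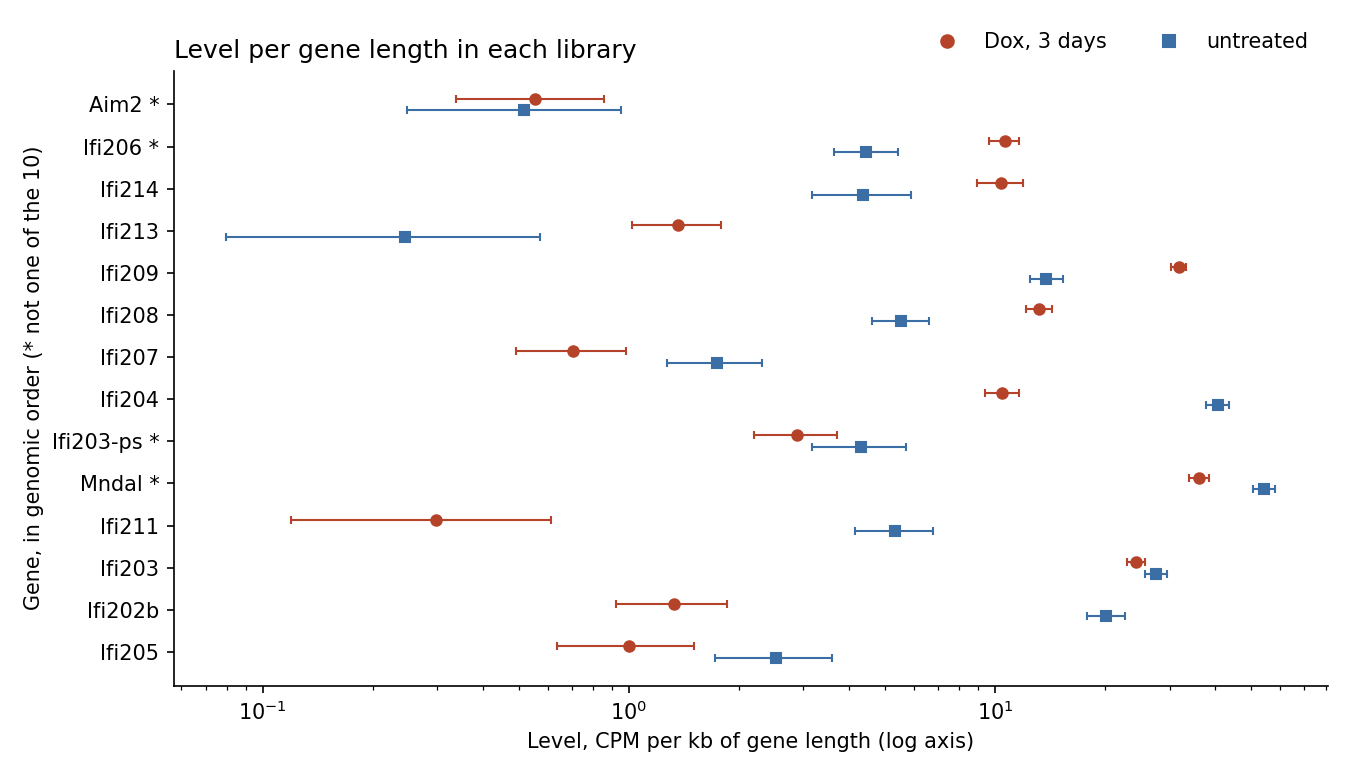
Level of each HIN-200 gene in Dox cells (circles) and untreated cells (squares), in CPM per kb of gene length (x axis, log scale), with exact 95% counting intervals as bars and genes in genomic order. Circles lie right of squares from Ifi206 to Ifi208 and left of them from Ifi207 to Ifi205; Ifi202b lies at 1.33 against 20.1 CPM per kb.

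Summed over the 10 members, the level was 291 CPM in Dox cells and 324 CPM in untreated cells, a log2 ratio of -0.16 (-0.23 to -0.08). Without Ifi202b the sum was 288.2 CPM in Dox cells and 287.9 CPM in untreated cells, with a ratio of 0.002 (-0.07 to 0.08), which was -0.002 with DESeq2 size factors and -0.05 with total counts. The sum thus joins genes with opposite ratios. The 4 members of the first group summed to 167 CPM with Dox and 71.2 CPM without, a ratio of 1.23 (1.10 to 1.37). The 6 members of the second group summed to 123 CPM with Dox and 253 CPM without, a ratio of -1.04 (-1.13 to -0.94).

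The make-up of the family differed between the libraries. Ifi209 gave 38.2% (36.7 to 39.7) of the members' 4134 counts in Dox cells and 14.9% (13.5 to 16.4) of their 2463 counts in untreated cells. Ifi204 gave 8.27% (7.45 to 9.15) with Dox and 28.7% (27.0 to 30.6) without, and Ifi202b 0.822% (0.570 to 1.15) with Dox and 11.2% (9.95 to 12.5) without. Ifi203 held nearly the same share, at 31.7% (30.3 to 33.2) in Dox cells and 32.3% (30.4 to 34.2) in untreated cells.

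**Figure D4:**
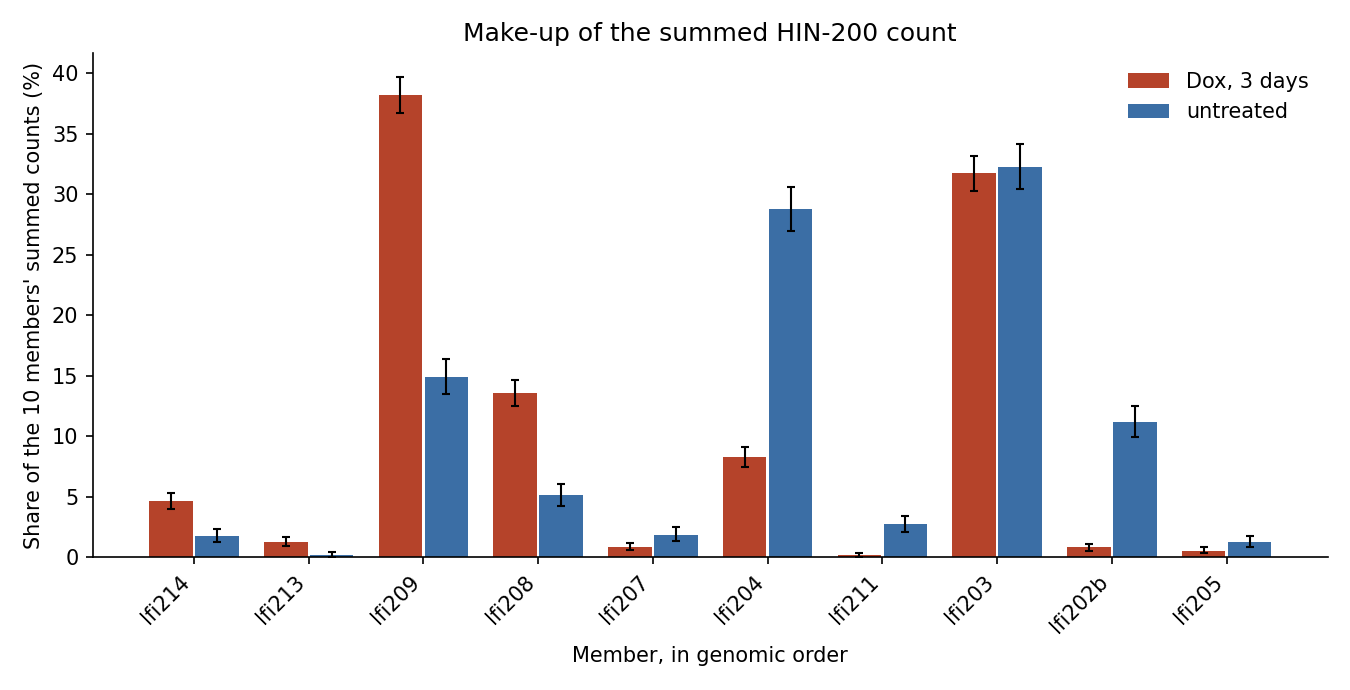
Share of each of the 10 members in their summed counts (y axis, percent) in Dox cells (left bars) and untreated cells (right bars), with exact 95% binomial intervals and members in genomic order. Ifi209 has the largest share with Dox, 38.2%, while Ifi203 at 32.3% and Ifi204 at 28.7% lead without it.

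Reads that match several members could be split or dropped by the counting, and no source used here states its rule for such reads. The GENCODE vM21 transcripts of the genes were therefore compared by exact stretches of 50 bases. Ifi202b and Aim2 shared 0% of their stretches with another family gene. Ifi204 shared 19.2% and Ifi203 12.2%. Ifi209 shared 33.4%, all of these with Ifi214, and Ifi208 20.8%. Ifi211 was the least distinct, with 72.8% of its stretches in another family gene, of them 774 also in Ifi205, 521 in Ifi204 and 296 in Mndal, all genes of the second group. Between a gene of the first and a gene of the second group, 0 stretches were shared. In GENCODE vM21 the gene Mndal also runs over Ifi211 and Ifi203 on the same strand, so counts of these genes are uncertain, and without a stated strand setting antisense reads cannot be told apart. The part of shared reads in the ratios was not tested.

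Outside the family, the genes that could be placed around the cluster were nearly silent in these cells. In the whole table, 1854 genes matched no symbol and 18 were named through GENCODE, and these had no position to place them by. Within the span of the 14 HIN-200 genes and 500 kb to either side, the table lists 28 other genes with a position, of which 20 are olfactory receptor genes. Of the 28, 27 had 0 counts in both libraries, and 0 reached 5 CPM in either. Over the whole table of 27179 genes, 11503 had 0 counts in both libraries and 10113 reached 5 CPM in the higher one.

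Most measured interferon receptor, signal transduction and interferon-stimulated genes stood higher with Dox, while the nucleic acid sensing list was close to the background. Over all 11498 genes measured, 5889 had a ratio above 0 and 5609 one below 0. The interferon genes Ifnb1 and Ifng had 0 counts in both libraries, which allows up to 0.211 CPM in Dox cells and 0.395 CPM in untreated cells. All 5 measured genes of the list of interferon ligands and receptors were receptor chains with ratios above 0, among them Ifnar1, a chain of the type I receptor, at 0.63 (0.51 to 0.75) and Il10rb at 0.76 (0.40 to 1.16). Of 18 measured genes of signal transduction 16 were above 0, with a median of 0.45 against 0.01 over all 11498 genes measured. The interferon regulatory factor Irf7, at 41.1 CPM with Dox and 15.5 CPM without, had the largest ratio, 1.39 (1.12 to 1.70), and Irf4, at 31.2 CPM with Dox and 57.8 CPM without, the lowest, -0.88 (-1.08 to -0.69).

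Of 29 measured interferon-stimulated genes outside the cluster, 5 stood higher by 2-fold or more and 0 lower, and the median ratio was 0.53. Over all genes measured, 2.91% stood that much higher and 3.16% that much lower. The nuclear body gene Sp100 had 273 CPM in Dox cells and 120 CPM in untreated cells and a ratio of 1.18 (1.08 to 1.29), close to those of Ifi209 and Ifi208. Ifi27l2a stood at 1.99 (1.60 to 2.47), Ifit1 at 1.26 (0.68 to 1.97) and Cmpk2 at 1.02 (0.61 to 1.47). Not all were higher, since 4 of the 29 were at least 1.5-fold lower, against 8% of all genes measured, among them Bst2, at 24.7 CPM with Dox and 45.1 CPM without. The lowest ratio among the 29 was -0.87, that of Bst2. Ifitm2, under the level counted as measured and named after its values were seen, stood at -1.77 (-6.01 to -0.32) on 2 Dox and 7 untreated counts. Those of Ifi204, Ifi211 and Ifi202b lay between -1.95 and -3.82. The family was selected on such ratios and the list was not, so this contrast is a description only.

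**Figure D5:**
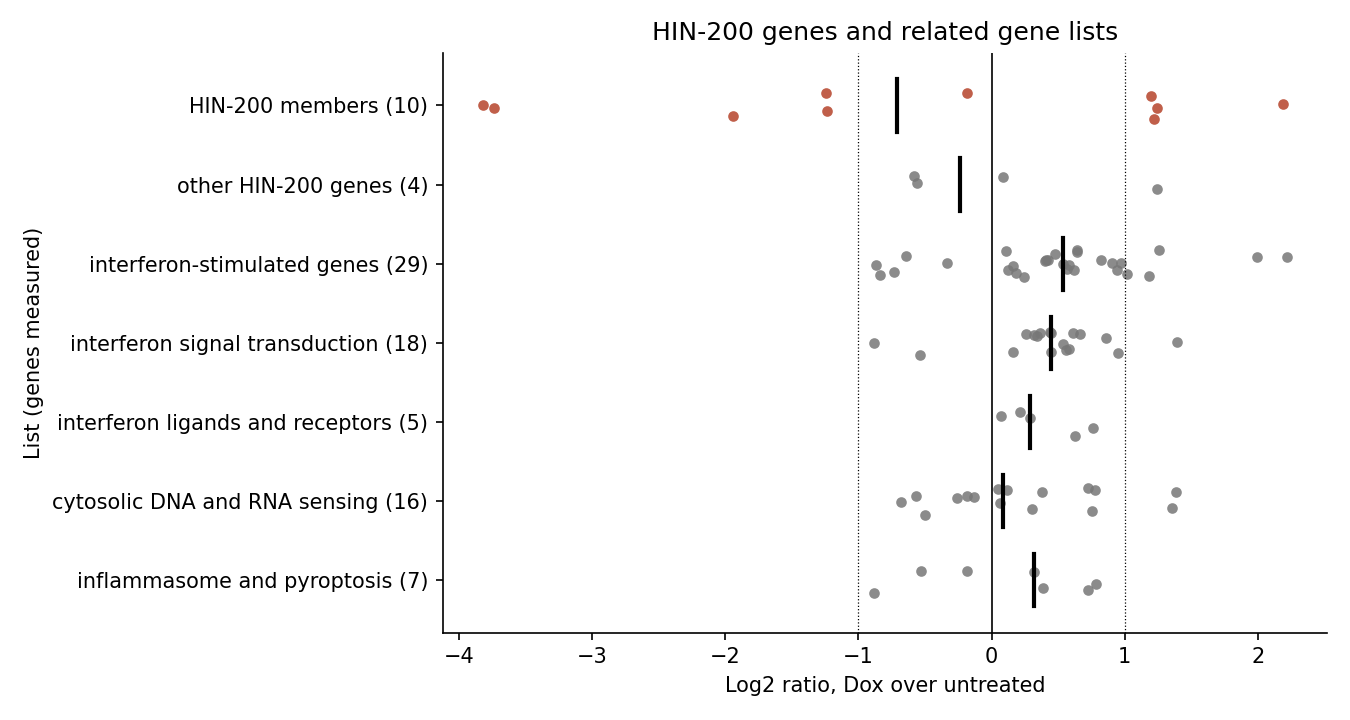
Log2 ratio of Dox over untreated (x axis) of each measured gene in 7 lists (y axis, with the number of genes), with black bars for the medians and dotted lines at 2-fold. HIN-200 members spread from -3.82 to 2.19, while the 29 interferon-stimulated genes lie between -0.87 and 2.22.

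Among sensors of nucleic acids, 16 genes were measured, with a median of 0.09. Of these, 2 stood higher by 2-fold or more and 0 lower, against 2.91% and 3.16% of all genes measured. The 2 higher ones were Ddx58, which encodes the RNA sensor RIG-I, at 1.39 (1.19 to 1.60) and Zbp1, a sensor of Z-form nucleic acids, at 1.35 (1.11 to 1.62). The kinase Ikbke stood at 0.78 (0.65 to 0.91) and Enpp1, which degrades the second messenger cGAMP, at 0.75 (0.15 to 1.45). In all, 10 of the 16 lay above 0 and 6 below. Of those below, named here after their values were seen, the RNA sensor Ifih1 stood at -0.68 (-1.12 to -0.26), the DNA exonuclease Trex1 at -0.56 (-0.96 to -0.18), the ribonuclease subunit Rnaseh2a at -0.50 (-0.66 to -0.34) and the adaptor Mavs at -0.26 (-0.48 to -0.03). Cgas and Sting1, the cytosolic DNA sensor and its adaptor, were likewise named after their values were seen and stood at 0.30 (-0.02 to 0.63) and 0.38 (0.19 to 0.58).

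The inflammasome list held both silent and transcribed genes. Of its 17 genes 7 were measured and 10 lay under 1 CPM, as did 15681 of the 27179 genes of the table. Of the 7, 0 were past 2-fold, against 2.91% higher and 3.16% lower over all genes measured. In this list 4 lay above 0 and 3 below, and the median was 0.32. Pycard, which encodes ASC, the adaptor of Aim2, had 53.8 CPM in Dox cells and 31.2 CPM in untreated cells and a ratio of 0.78 (0.57 to 1.002). Nlrc3 stood at 0.73 (0.48 to 0.99), Gsdmd at 0.39 (0.14 to 0.64) and Ninj1 at -0.53 (-0.91 to -0.16). Casp1, the caspase of Aim2 inflammasomes, had 0 counts in both libraries. The 8 other pyrin-domain genes found in the table were all under the level counted as measured.

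Genes whose proteins have been reported to bind HIN-200 proteins had a median of -0.01 over 21 measured. Of these, 1 stood higher by 2-fold or more and 2 lower, against 2.91% and 3.16% of all genes measured. The higher one was Runx2, named after its values were seen, at 1.28 (0.18 to 3.02) on 31 Dox and 6 untreated counts. Jun, an AP-1 subunit, had 29.1 CPM in Dox cells and 160 CPM in untreated cells and a ratio of -2.45 (-2.62 to -2.29). Id1, with 27 counts in Dox cells and 41 in untreated cells, had one of -1.42 (-2.26 to -0.77), Myc one of -0.72 (-0.79 to -0.65) and Fos one of 0.67 (0.17 to 1.25).

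Ifi204 and Ifi205 are also transcribed in myeloid cells. Of 17 myeloid markers 4 were measured, and the summed level of the list was 32.4 CPM in Dox cells and 23.4 CPM in untreated cells. Lyz2 was lower with Dox, at 1.69 CPM against 7.24 CPM in untreated cells, while Itgam (14.7 CPM with Dox, 8.42 without), Ctss (8.65 with Dox, 3.03 without) and Cd68 (6.19 with Dox, 3.29 without) were higher. Mpo, Elane, S100a8, Ly6g and Cebpa had 0 counts in both libraries. Ifi204 stood at 24.0 CPM with Dox and 93.2 CPM without, and its level in myeloid cells was not measured here. Of 10 dendritic cell markers 2 were measured, Bst2 and Ccr2, and the list summed to 28.5 CPM with Dox and 46.2 CPM without, nearly all of it Bst2, which T cells can also transcribe. The part of such cells in the ratios was not tested. In sorted bulk RNA, fewer transcribing cells and less RNA per cell cannot be told apart.

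With only 2 libraries, likeness of pattern means a like ratio. Among genes with an untreated level within 2-fold of the median member's 12.7 CPM, Lrrc20, Trp53i13 and Zfp703 came closest to the log2 ratio of the summed members, each at -0.16.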

How the data were processed

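The authors deposited counts, whole numbers of reads per gene, with gene lengths and no normalization. Per the submitters' processing notes, CASAVA 1.8.2, featureCounts and the build mm10 were used. Aligner, annotation, strand setting and the rule for shared reads: not given in the sources used here. Per the design text each group had 3 mice and each RNA 2 runs, yet the table holds 1 column per group.

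Library sizes were corrected by TMM factors (edgeR 4.0.16, R 4.3.3), and log2 ratios used a prior count of 2, which pulls low genes towards 0. Folds are these ratios on the linear scale. Sums, shares and intervals used no prior count. Intervals of ratios and shares are Clopper-Pearson, those of levels exact Poisson, all covering counting error only. A count of 0 allows 3 counts. The intervals were tried on simulated counts drawn with counting error only, so that trial cannot speak to spread between mice or libraries. Symbols came from the RefSeq gene table of GRCm38.p6 and GENCODE vM21.

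The members, lists and the rule for named genes (all family genes, up to 4 genes a list with the largest ratio and 5 CPM, and the nearest ratios) were chosen with earlier results of these data known. Promoters were aligned with Biopython 1.88. Alternatives were scaling by DESeq2 1.42.0 or by total counts, a prior count of 0.5 or 5, and other minimum levels. The proteins were not compared here.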

Additional observations from a re-analysis of the deposited data

How the results depend on the processing

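No paired analysis was possible because each group has 1 library. All 40 values of the 10 members under DESeq2 size factors, total counts and prior counts of 0.5 and 5 kept the sign of the reported ratio, and another scaling moved a member's ratio by at most 0.047. The log2 ratio of the summed members without Ifi202b was 0.00155, near 0 and of the other sign than the -0.16 of all 10 members. It was -0.002 with DESeq2 size factors and -0.05 with total counts. Summed over all HIN-200 genes from Ifi206 to Ifi208, members or not, the log2 ratio was 1.24. Over all those from Ifi207 to Ifi205, Ifi202b included, it was -0.89. Both of these sums were chosen after seeing the data. Of all genes, 407 were at least 2-fold higher and 440 lower with a minimum of 1 CPM, 129 and 104 with 20 CPM, 784 and 744 with none, and 115 and 141 with the interval bound past 2-fold. With that bound 1 member was higher, Ifi209, and with 20 CPM 2 were lower, Ifi204 and Ifi202b. The median of the members was 0.51 with a minimum of 5 CPM, against -0.71, since Ifi205, Ifi207, Ifi211 and Ifi213, with lower mean levels, then drop out. With no minimum, the medians of the inflammasome, the interferon ligand and receptor, the myeloid and the NK cell lists were 0, since silent genes enter, and with 5 CPM that of the dendritic cell list was -0.87. Stretches of 100 bases gave a median share of 5.91% with another family gene, against 16.8% for 50 bases. Of 12 promoters, 2 held the response element core with TT inside, against 9 for any inner bases, and 10 held GGGAA, against 1 for TGGGAA. Depth limits Aim2, Ifi202b, Ifi205, Ifi207, Ifi211 and Ifi213, each with 35 counts or fewer in at least 1 library.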
